A study of Mus musculus with 12 samples.

Results

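The circadian clock genes described here were 10 genes taken by name from the array: Arntl, Clock, Npas2, Per1, Per2, Per3, Cry1, Nr1d1, Dbp and Nfil3. They stood for 10 of 37074 gene names and 22 of 56605 probes. RNA of the cecum, the blind pouch at the start of the large intestine, came from male C57BL/6 mice as the labels and methods give them, with no age given in the sources used here. A sham group, sampled at 0 h after a sham operation per the study's methods, was compared with mice sampled 3, 12 and 72 h after the cecum had been cauterized with bipolar forceps under pentobarbital. Each of the 4 groups had 3 arrays, which the study calls biological triplicates, and each array was hybridized with Cy3-labeled cRNA in a single colour.

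The clock is a transcription loop that runs in nearly every cell. ARNTL (also called BMAL1) pairs with CLOCK or NPAS2 and drives the Per and Cry genes through a DNA element named the E-box, and the PER and CRY proteins in turn repress the pair. A second loop runs through NR1D1 (REV-ERBα), which represses Arntl through an element named the RRE, and another through the D-box, which DBP activates and NFIL3 represses. In the intestine these genes cycle over the day and follow feeding. The hour of the day of surgery and of sampling is not given in the sources used here. Time of day and time from cauterization therefore cannot be told apart for any value below. No sham group was sampled at the times after cauterization. Effects of anesthesia, of opening the abdomen and of feeding after surgery therefore cannot be told apart from those of cauterization either.

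The share of probes well above background was 60.2% to 65.2% over the 12 arrays. It was lower on the 3 h arrays (60.2% to 61.5%) than on the sham arrays (63.3% to 65.0%). The 75th percentile intensity was 243 to 261 on the 72 h arrays and 180 to 220 on all others. Replicate arrays correlated at 0.985 to 0.992 over all probes. The labels give the mice as male, but the RNA of the inactive X chromosome, Xist, was detected on all 12 arrays, and of the Y-linked genes Ddx3y and Eif2s3y passed background on 0 arrays, Uty on 1 and Kdm5d on 12. All sham and 3 h arrays and 12 h replicates 1 and 2 lay on the first slide, and 12 h replicate 3 and all 72 h arrays on the second, so that slide and the 72 h group were separable only through 1 array. Levels are log2 intensities relative to the 75th percentile of each array, and a gene was called when it differed by more than 2-fold with a limma adjusted p below 0.05. Because all comparisons with sham share the same 3 sham arrays, they are not independent of one another. The tissue was measured in bulk, where fewer cells of a type and less RNA per cell cannot be told apart.

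Nfil3 rose and stayed high, Per1 and Per2 rose, Cry1 rose for a time, and Arntl, Per3, Nr1d1 and Dbp fell. At 3 h 5 of the 10 genes were called (Per1, Cry1 and Nfil3 higher, Per3 and Dbp lower), where 7.37% of all genes were called, 3.26% higher and 4.11% lower. At 12 h 7 were called (Per2, Cry1 and Nfil3 higher, Arntl, Per3, Nr1d1 and Dbp lower), where 9.06% of all genes were, 4.1% higher and 4.96% lower. At 72 h 5 were called (Per1, Per2 and Nfil3 higher, Arntl and Nr1d1 lower), where 8.85% of all genes were, 4.55% higher and 4.3% lower. Across the 4 groups 9 of the 10 differed by limma's F-test, against 39.3% of all genes. The exception was Npas2, with an adjusted p of 0.0506 by that test. Of all 37074 genes 20819 were well above background on all 12 arrays, as were 9 of the 10 clock genes. The shares over all genes thus include many dim genes, and shares among bright genes alone were not counted. At 3 h the median log2 difference of the 10 genes was -0.19 beside 0.08 over all genes, at 12 h it was -0.82 beside -0.01, and at 72 h -0.36 beside -0.14, a shift against which the 72 h values are to be read.

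**Figure D1:**
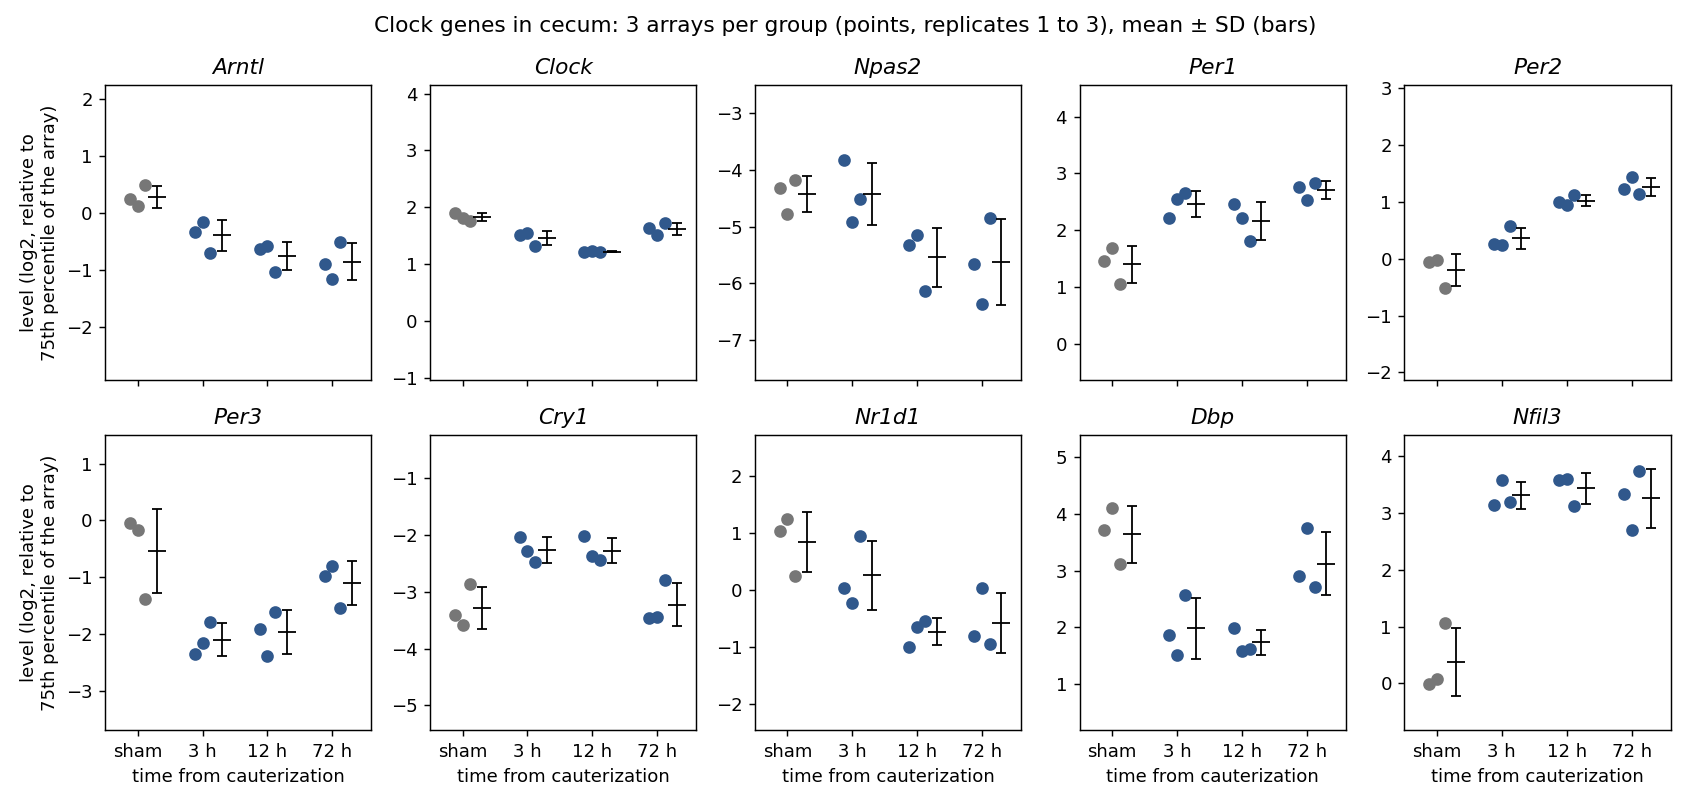
Level of each of the 10 genes on every array, as log2 intensity relative to the 75th percentile of that array (points, replicates 1 to 3 from left to right), with the mean and SD of the 3 arrays of each group (bars). All panels span the same number of log2 units. The Nfil3 points after cauterization, between 2.70 and 3.73, lie above all sham points, and those of Dbp at 12 h, between 1.59 and 2.0, lie below all sham points.

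The 3 arrays did not overlap the sham arrays for 8 of the 10 genes at 3 h, where 46.6% of all genes did not overlap. They did not overlap for 10 of 10 at 12 h, where the share of all genes was 36.2%, and for 7 of 10 at 72 h, where it was 37.5%. Every gene called at a time point was among those without overlap at that time point. A call and a lack of overlap are read from the same arrays, so this is not separate support for the calls. Sham replicate 3 was the sham array nearest to the mean of the treated group at 3 h for 6 of the 10 genes, at 12 h for 6 and at 72 h for 5. The share over all genes was not counted, so nothing is concluded from these counts.

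Promoter sequence was searched for the elements through which the loops act, in RefSeq windows of the GRCm38.p6 build that run from 250 bases before to 50 bases after a transcription start. Of the 10 genes 9 had a window, 13 windows in all, and Per2 had none. The letters searched, on both strands, were CACGTG for the E-box, TTATGTAA or TTACGTAA for the D-box, TAGGTCA for the RRE and TGACGTCA for the cAMP response element, to which CREB binds. No searched element overlapped another in these windows. Among all 32851 windows 7.15% held the E-box, 1.06% the D-box, 2.61% the RRE and 1.79% the cAMP response element. The 5 stretches that held a match are shown because they hold all the matches found in these windows. They run 5′ to 3′ on the gene's strand, with the matching bases in capitals. Any part of these elements in the changes of the genes was not tested.
Per3 (chr4:151044791-151044895, minus strand, D-box): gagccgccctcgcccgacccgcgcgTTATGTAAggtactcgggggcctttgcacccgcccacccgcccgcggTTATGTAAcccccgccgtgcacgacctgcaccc
Per1 (chr11:69098758-69098813, plus strand, E-box): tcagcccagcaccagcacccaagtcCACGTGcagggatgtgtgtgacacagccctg
Cry1 (chr10:85185084-85185139, minus strand, E-box): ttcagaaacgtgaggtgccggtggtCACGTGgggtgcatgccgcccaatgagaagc
Arntl (chr7:113207530-113207559, plus strand, RRE): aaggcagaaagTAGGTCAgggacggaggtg
Nfil3 (chr13:52981040-52981076, minus strand, RRE on the opposite strand): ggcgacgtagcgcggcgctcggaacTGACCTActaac
The Per3 matches began 205 and 158 bases upstream of the start, that of Per1 166, that of Cry1 60 and that of Nfil3 12, and the Arntl match lay just past the start in 1 of its 2 windows. Clock, Npas2, Nr1d1 and Dbp held no match to these letters in their windows. The cAMP response element matched in the windows of 0 of the 9 genes.

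Arntl, the activator that the loop depends on, fell. In sham its level was 0.24, 0.12 and 0.49. After 3 h it was -0.33, -0.16 and -0.70, after 12 h -0.64, -0.58 and -1.04, and after 72 h -0.89, -1.17 and -0.51. Every array after cauterization was below every sham array. The log2 difference from sham was -0.68 ± 0.21 (SE, n = 3 per group) at 3 h, which limma's adjusted p of 0.0468 passed but the 2-fold limit did not, -1.04 ± 0.21 at 12 h (adjusted p = 0.0060) and -1.14 ± 0.21 at 72 h (adjusted p = 0.0043). Both of its other probes were called lower at all 3 times. One gave -1.06, -1.43 and -1.38 in order of time and the other -1.18, -1.40 and -1.62, and the 3 probes correlated with one another at 0.92 to 0.95 over the 12 arrays. The first of the probes printed here, used for the gene, lies at chr7:120456978-120457037 and the second spans chr7:120435023-120436706 (mm9, plus strand), 1684 genomic bases for 60 bases of probe, so that it reads spliced message. They are shown because the fall of Arntl was read by different parts of its transcript.
Arntl, probe used: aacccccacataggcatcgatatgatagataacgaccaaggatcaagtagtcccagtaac
Arntl, probe across a splice junction: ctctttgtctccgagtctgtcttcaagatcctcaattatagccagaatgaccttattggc
The call at 12 h was lost without sham replicate 3 (-0.93) or 12 h replicate 3 (-0.90), and the call at 72 h without 72 h replicate 2 (-0.99), each by falling short of 2-fold. With the slide as a block the difference was -0.90 at 12 h (adjusted p = 0.0216), the same result as without 12 h replicate 3. At 72 h it was -0.72 with that block (adjusted p = 0.296), so neither was called.

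Clock, the usual partner of ARNTL, moved less than 2-fold. The level was 1.90, 1.82 and 1.76 in sham. The 3 h arrays read 1.51, 1.54 and 1.32, the 12 h arrays 1.20, 1.23 and 1.22, and the 72 h arrays 1.62, 1.51 and 1.71. All arrays after cauterization lay below the sham arrays, with the lowest values at 12 h. Clock differed from sham by a log2 value of -0.37 ± 0.10 at 3 h (adjusted p = 0.0301), -0.61 ± 0.10 at 12 h (adjusted p = 0.00217) and -0.21 ± 0.10 at 72 h (adjusted p = 0.185), and at no time was the gene called. From 12 h to 72 h it went up by 0.40 ± 0.10 (adjusted p = 0.0223, and 0.173 with the slide as a block). The probes of Clock disagreed: a second one had differences of 0.25, 0.35 and 0.12 and correlated with the first at -0.61, another had -0.64, -0.63 and -0.23, and the last was well above background on 1 array. Npas2, which can take the place of CLOCK, was dim, being well above background on 3 arrays in sham and on 2, 0 and 1 after 3, 12 and 72 h. On the arrays in order of replicate it read -4.33, -4.77 and -4.17 in sham. After 3 h it was -3.84, -4.93 and -4.52, after 12 h -5.33, -5.15 and -6.13, and after 72 h -5.65, -6.36 and -4.85. The arrays at the last 2 times lay below sham. Its differences of -0.00 ± 0.41 at 3 h, -1.11 ± 0.41 at 12 h (adjusted p = 0.0858) and -1.20 ± 0.41 at 72 h (adjusted p = 0.0685) did not pass, although without 72 h replicate 3 the last was called at -1.58 (adjusted p = 0.0252). At 12 h, where the probe was on no array above background, the mean sham level was 1.46-fold above a bound set by the dimmest probes that the 12 h arrays measured. That bound carries no error and holds only for the main processing. Over the alternatives the 12 h difference of Npas2 ran from -1.31 to -0.16.

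Per1, a repressor of the loop and a gene that also answers quickly to signals from outside the cell, rose. Levels in sham were 1.46, 1.69 and 1.05, and those at 3 h were 2.21, 2.55 and 2.65. At 12 h they were 2.46, 2.21 and 1.81 and at 72 h 2.77, 2.54 and 2.83, with no overlap with sham at any time. On the log2 scale the rise was 1.07 ± 0.21 at 3 h (adjusted p = 0.00672) and 1.31 ± 0.21 at 72 h (adjusted p = 0.00233), or 2.10-fold and 2.48-fold, and 0.76 ± 0.21 at 12 h (adjusted p = 0.0289), short of 2-fold. The 3 h call was lost without sham replicate 3 (0.89) or 3 h replicate 3 (0.98), and with quantile normalization (0.95), the percentile over bright probes (0.95) or normexp (0.97). A second Per1 probe, designed on the clone AK081813, was above background on 5 of the 12 arrays and gave 0.05, -0.18 and -0.27.

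Per2, the partner repressor, rose past 2-fold at 12 and 72 h. It was at -0.05, -0.02 and -0.51 in sham and at 0.27, 0.24 and 0.57 on the 3 h arrays. Those at 12 h gave 0.99, 0.95 and 1.13, and those at 72 h gave 1.23, 1.43 and 1.13. The 3 h arrays lay between the sham and the 12 h arrays, and those at 12 and 72 h touched at 1.13 without overlap. The log2 difference from sham was 0.56 ± 0.16 at 3 h (adjusted p = 0.0350, not called), 1.22 ± 0.16 at 12 h (adjusted p = 0.000545) and 1.46 ± 0.16 at 72 h (adjusted p = 0.000280). The step from 3 h to 12 h was 0.66 ± 0.16 (adjusted p = 0.0301, and 0.0918 with the slide as a block), and that from 12 h to 72 h was 0.24 ± 0.16 (adjusted p = 0.336). A second, dimmer probe at chr1:93336538-93336597 (mm9, minus strand) did not pass any comparison with sham and had the opposite sign at 72 h, with 0.33, 0.40 and -0.57, and correlated with the first at -0.28 over the 12 arrays. From 12 h to 72 h it read -0.97 (adjusted p = 0.0444), with no overlap of the arrays, the opposite sign to the first probe. Its first base lay 23943 bases from that of the first probe on the genome, upstream in the gene. Its sequence is shown because the rise of Per2 at 72 h was seen by only 1 of the gene's 2 probes.
Per2, probe without the rise: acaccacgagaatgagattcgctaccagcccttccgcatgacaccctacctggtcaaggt

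Per3, the Per gene that the loop depends on least, went the other way from Per1 and Per2 at 3 h. Sham arrays read -0.05, -0.17 and -1.38, with replicate 3 well below the other sham arrays. The arrays at 3 h read -2.36, -2.16 and -1.78, those at 12 h -1.90, -2.38 and -1.62, and those at 72 h -0.98, -0.79 and -1.54. The first of these treated groups lay below all sham arrays, as did the second, while the 72 h arrays overlapped sham. Per3 differed from sham by a log2 value of -1.57 ± 0.36 at 3 h (adjusted p = 0.0136), -1.44 ± 0.36 at 12 h (adjusted p = 0.0178) and -0.57 ± 0.36 at 72 h (adjusted p = 0.307). The calls were lost without sham replicate 1 (-1.32 at 3 h, adjusted p = 0.0576, and -1.19 at 12 h, adjusted p = 0.0726), without sham replicate 2 (-1.38, adjusted p = 0.0550, and -1.25, adjusted p = 0.0704) and, at 12 h, without 12 h replicate 2 (-1.23, adjusted p = 0.0672). A second probe was called at 3 h (-1.04, adjusted p = 0.0409) and not at 12 h (-0.55, adjusted p = 0.259). At 72 h this second probe had the opposite sign to the first, at 0.13 (adjusted p = 0.793). The last probe was above background on 0 arrays at 3 h and at 12 h.

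Cry1, the repressor that acts on ARNTL and CLOCK most directly, was higher at 3 h and 12 h and was not called at 72 h. It read -3.41, -3.58 and -2.87 in sham and -2.03, -2.28 and -2.48 at 3 h. Values at 12 h were -2.02, -2.37 and -2.43, and those at 72 h were -3.45, -3.44 and -2.79. The 3 h and 12 h arrays were all above sham, and the 72 h arrays overlapped sham. The log2 difference was 1.02 ± 0.24 at 3 h (adjusted p = 0.0147), 1.01 ± 0.24 at 12 h (adjusted p = 0.0135) and 0.06 ± 0.24 at 72 h (adjusted p = 0.886), and the fall from 12 h to 72 h was -0.95 ± 0.24 (adjusted p = 0.0213), just short of 2-fold, and -0.79 with the slide as a block (adjusted p = 0.246). A second probe moved alike (r = 0.90 over 12 arrays) at 0.72, 0.71 and -0.14, without a call. Both calls of Cry1, just past 2-fold, were lost without sham replicate 1 (0.96 and 0.95), without sham replicate 2 (0.88 and 0.86), and without replicate 1 of the treated group (0.91 at 3 h and 0.88 at 12 h). The fall from 12 h to 72 h was called without 12 h replicate 3 (-1.03, adjusted p = 0.0321) or 72 h replicate 3 (-1.17, adjusted p = 0.00937).

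**Figure D2:**
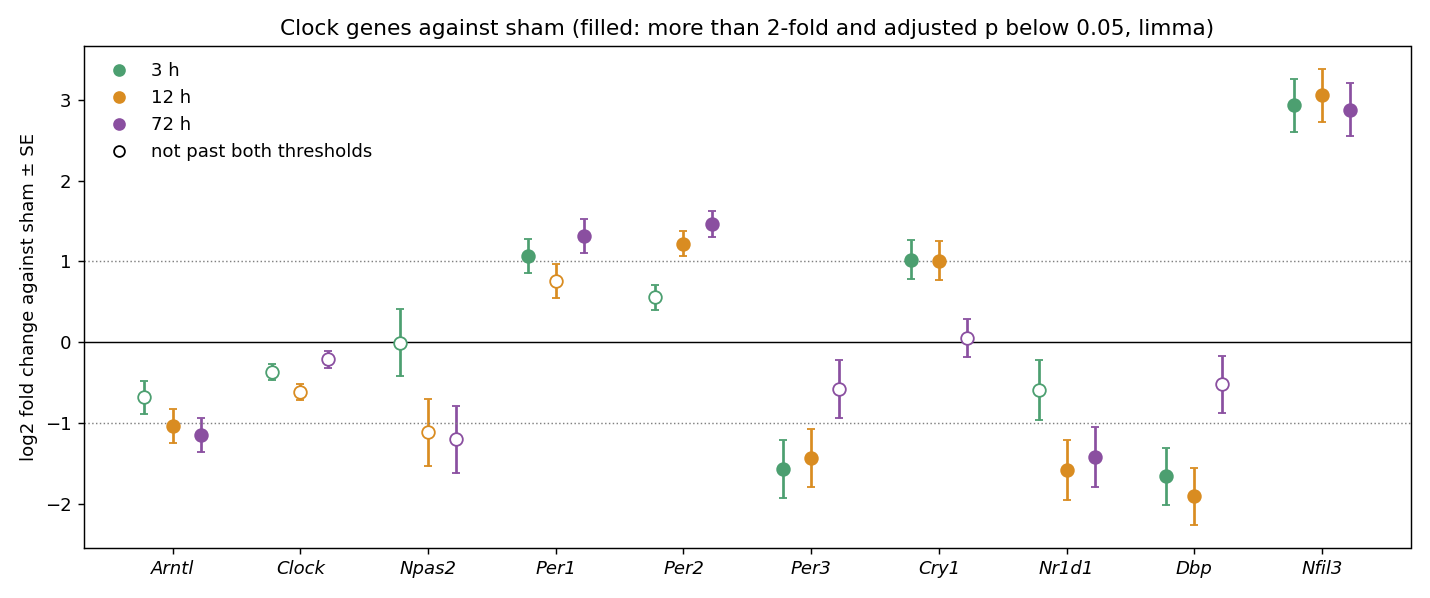
Log2 fold change of each gene against sham at 3, 12 and 72 h (points, probe used for the gene) with its standard error from limma (bars, n = 3 arrays per group), the dotted lines marking 2-fold. Filled points were called, and those of Nfil3 lie between 2.88 and 3.06 at all 3 times while Dbp goes from -1.66 and -1.90 to -0.52.

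Nr1d1, the repressor of Arntl in the second loop, was lower at 12 and 72 h. Its level was 1.03, 1.25 and 0.24 in sham and 0.04, -0.22 and 0.95 at 3 h, which overlapped. At 12 h it was -1.0, -0.65 and -0.55 and at 72 h -0.80, 0.03 and -0.96, all below sham. The log2 difference was -0.59 ± 0.37 at 3 h (adjusted p = 0.284), -1.57 ± 0.37 at 12 h (adjusted p = 0.0135) and -1.42 ± 0.37 at 72 h (adjusted p = 0.0233), or 2.97-fold and 2.67-fold lower at the last 2 times. Arntl, which NR1D1 represses, was called lower at the same 2 times. The 12 h call was lost without sham replicate 1 (-1.48, adjusted p = 0.0520), sham replicate 2 (-1.37, adjusted p = 0.0563) or 12 h replicate 1 (-1.44, adjusted p = 0.0523). That at 72 h was lost without sham replicate 1 (-1.32, adjusted p = 0.0745), sham replicate 2 (-1.21, adjusted p = 0.0868), 72 h replicate 1 (-1.31, adjusted p = 0.0753) or 72 h replicate 3 (-1.23, adjusted p = 0.0766), and with the slide as a block (-1.69, adjusted p = 0.233). Nr1d1 rested on 1 probe, which spans chr11:98630526-98631028 (mm9, minus strand), 503 genomic bases, and so reads spliced message. It is shown because no other probe could be set beside it.
Nr1d1, only probe: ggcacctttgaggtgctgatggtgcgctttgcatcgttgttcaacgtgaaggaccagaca

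Dbp, the D-box activator and a direct E-box target, fell at 3 and 12 h and had returned in part at 72 h. Sham arrays were at 3.71, 4.10 and 3.11. The 3 h arrays were at 1.87, 1.51 and 2.57, the 12 h arrays at 2.0, 1.59 and 1.63, and the 72 h arrays at 2.91, 3.75 and 2.72. No array at 3 or 12 h reached the lowest sham array, while 1 of the 3 at 72 h lay inside the sham range. The log2 difference was -1.66 ± 0.35 at 3 h (adjusted p = 0.00962) and -1.90 ± 0.35 at 12 h (adjusted p = 0.00389), or 3.15-fold and 3.74-fold lower, and -0.52 ± 0.35 at 72 h (adjusted p = 0.353). Both calls held without any single array. A second probe gave -1.92, -2.02 and -0.51 and followed the first at r = 0.99 over the 12 arrays.

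The return of Dbp was the one called difference of the 10 genes between neighbouring times after cauterization. From 3 h to 12 h 0 of the 10 were called, where 3.46% of all genes were, 1.89% higher and 1.56% lower. At an unadjusted limma p below 0.05 and any fold 4 of the 10 differed, where 24.1% of all genes did. The methods' t-test, paired by replicate number, called 0 past 2-fold at an unadjusted p, where it called 2.69% of all genes. The arrays of these 2 times did not overlap for 4 of the 10 genes, where 29.4% of all genes did not. From 12 h to 72 h 1 was called, where 7.52% of all genes were, 4.33% higher and 3.19% lower, and the arrays did not overlap for 6 of the 10, where 38.4% of all genes did not. The called gene was Dbp, at 1.39 ± 0.35 (adjusted p = 0.0227), or 2.62-fold, and its second probe was called as well at 1.51 (adjusted p = 0.0143). The call was lost without 12 h replicate 2 (1.31, adjusted p = 0.0738), 12 h replicate 3 (1.33, adjusted p = 0.0566) or 72 h replicate 2 (1.07, adjusted p = 0.0782). Within the second slide, where 12 h replicate 3 met the 72 h arrays, the difference was 1.5 and rested on 1 array at 12 h.

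Nfil3, the D-box repressor and a factor also made by immune cells after cytokine signals, had the largest change of the 10 genes at each time. Its sham level was -0.01, 0.07 and 1.07. The 3 h arrays read 3.15, 3.59 and 3.20, the 12 h arrays 3.57, 3.6 and 3.12, and the 72 h arrays 3.33, 2.70 and 3.73. All 9 arrays after cauterization stood above the highest sham array, replicate 3, and the 3 times overlapped one another. The log2 difference was 2.93 ± 0.33 at 3 h (adjusted p = 0.000351), 3.06 ± 0.33 at 12 h (adjusted p = 0.000186) and 2.88 ± 0.33 at 72 h (adjusted p = 0.000364), which is 7.64-fold, 8.32-fold and 7.35-fold. These calls held without any single array and with the slide as a block, where the 72 h difference was 3.34 (adjusted p = 0.0219), and the 72 h calls of Per1 (1.84, adjusted p = 0.0258) and Per2 (1.31, adjusted p = 0.0475) held with that block as well. A second probe that overlaps the first on the genome gave 2.87, 3.07 and 2.88 and is not a separate measurement of the transcript.

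The 22 probes of the 10 genes thus did not carry equal weight. Well above background on all 12 arrays were 17 of them, and Npas2 and Nr1d1 had a single probe each. Where several bright probes of a gene were present, those of Arntl, Per3, Cry1, Dbp and Nfil3 correlated at 0.82 or more within each gene, counting the dim Per3 probe, whereas those of Clock ran from -0.72 to 0.71 among the bright ones.

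**Figure D3:**
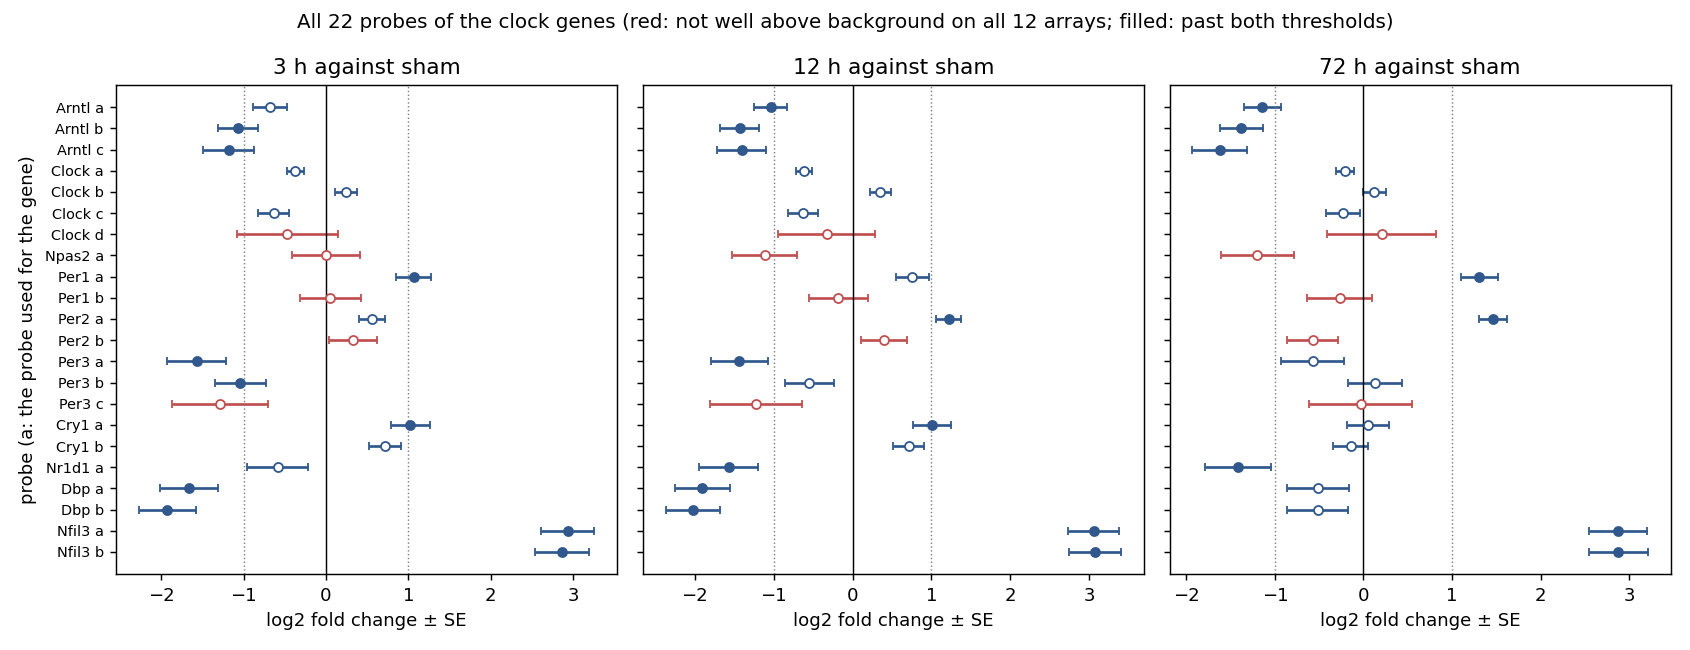
Log2 fold change against sham with its standard error for all 22 probes of the clock genes, 1 panel per time, the probe used for each gene marked a. Red probes were not well above background on all 12 arrays, and filled points were called. In the 72 h panel the probes of Clock, Per1, Per2, Per3 and Cry1 lie on both sides of 0, while the 3 of Arntl lie below it in each panel.

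Across the 12 arrays Per2 and Arntl ran most opposite among the 45 pairs of these genes (Pearson r = -0.94), followed by Per3 and Cry1 (r = -0.91) and Cry1 and Dbp (r = -0.89). Per3 and Dbp ran most alike (r = 0.91), and Nfil3 was nearest to Per1 (r = 0.79). These values describe arrays that share the 4 groups, and differences between the groups enter all of them. By the same measure over the 20792 gene names that were well above background and kept a value, after outlier spots were removed, on all 12 arrays, the genes most like Nfil3 were S100a9 (r = 0.98), a calcium-binding protein abundant in neutrophils, Il1b (r = 0.98), an inflammatory cytokine, and Gcnt2 (r = 0.98). Those most like Arntl were Pgap2 (r = 0.93), Ubox5 (r = 0.93) and 9130230L23Rik (r = 0.92), and those most like Clock were Kcnk3 (r = 0.99), Zfp113 (r = 0.96) and Btbd2 (r = 0.96). Npas2 was nearest to Lnx2 (r = 0.90), Gm39115 (r = 0.89) and Gphn (r = 0.89). Per1 was nearest to Lamp2 (r = 0.96), Zyx (r = 0.95) and Tgfbr1 (r = 0.94), Per2 to Cd200r1 (r = 0.96), St3gal4 (r = 0.95) and Slc39a14 (r = 0.95), and Per3 to Grik5 (r = 0.94), Aspa (r = 0.94) and Insr (r = 0.94). Cry1 ran with Hk2 (r = 0.96), which encodes a hexokinase, Rnf183 (r = 0.95) and Lyar (r = 0.95). For Nr1d1 they were Rasgef1b (r = 0.97), Aifm3 (r = 0.93) and Hoga1 (r = 0.92), and for Dbp Hp1bp3 (r = 0.95), Tsc22d1 (r = 0.94) and Bbs9 (r = 0.94). All these values use 1 probe per gene. A second bright Clock probe correlated with the one used at -0.61, and the second Per2 probe with the one used at -0.28. The Npas2 probe was well above background on 6 of the 12 arrays, so its values partly rank background.

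Like most genes of the array, the other genes of the loop were mostly not called. Of 15 such genes 1 was called at each time, all lower. In order of time 7.37%, 9.06% and 8.85% of all genes were called, and 4.11%, 4.96% and 4.3% were called lower. The median log2 difference of the list was -0.19, -0.29 and -0.03, beside 0.08, -0.01 and -0.14 over all genes. Usp2, a deubiquitinase that acts on clock proteins, was called lower at 3 h (-1.07 ± 0.17, adjusted p = 0.00202) and at 72 h (-2.14 ± 0.17, adjusted p = 4.19e-05). At 12 h Usp2 was lower as well (-0.87 ± 0.17, adjusted p = 0.00465) but short of 2-fold. The 3 h call of the list rose to 2 without sham replicate 3 and went to 0 without sham replicate 2. At 12 h the called gene was Bhlhe41, a repressor, whose probe was above background on 1 of the 6 arrays compared, so that no fold is given. Cry2 read -0.38, -0.40 and -0.10 and Nr1d2 0.21, -0.65 and -0.02, neither passing at any time. Csnk1e, a kinase of the PER proteins, read 0.91 ± 0.11 at 72 h (adjusted p = 0.000644) without reaching 2-fold, and Ciart, a further repressor, read 0.75, 0.90 and 0.72 with adjusted p between 0.186 and 0.289.

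Among 13 genes known to be driven by the clock, Hlf and the lipid sensor Ppara fell at all 3 times. Called higher were 1 of the 13 at 3 h, 1 at 12 h and 0 at 72 h, where 3.26%, 4.1% and 4.55% of all genes were. Called lower were 2, 3 and 4 of them, where 4.11%, 4.96% and 4.3% of all genes were. The medians were 0.16, -0.01 and -0.58, beside 0.08, -0.01 and -0.14 over all genes. Hlf, which binds the D-box as DBP does, was lower at all 3 times (-1.81 ± 0.28, -2.36 ± 0.28 and -1.53 ± 0.28, adjusted p = 0.00214, 0.000368 and 0.00478). Tef, another activator of that family, read -0.42, -0.42 and 0.23 and passed at none. Ppara was lower at all 3 times as well (-1.43, -1.67 and -1.11, each ± 0.22, adjusted p = 0.00194, 0.000618 and 0.00647). Abcb1a, a drug efflux pump, was lower at 12 h (-1.84 ± 0.29) and 72 h (-1.75 ± 0.29), and the sodium-proton exchanger Slc9a3 was lower at 72 h (-5.69 ± 0.64). Against the direction of most of the called genes, Alas1 of heme synthesis was higher at 3 h (1.0 ± 0.14, adjusted p = 0.00138), only just past 2-fold, and Nampt of NAD synthesis at 12 h (1.04 ± 0.26, adjusted p = 0.0171).

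**Figure D4:**
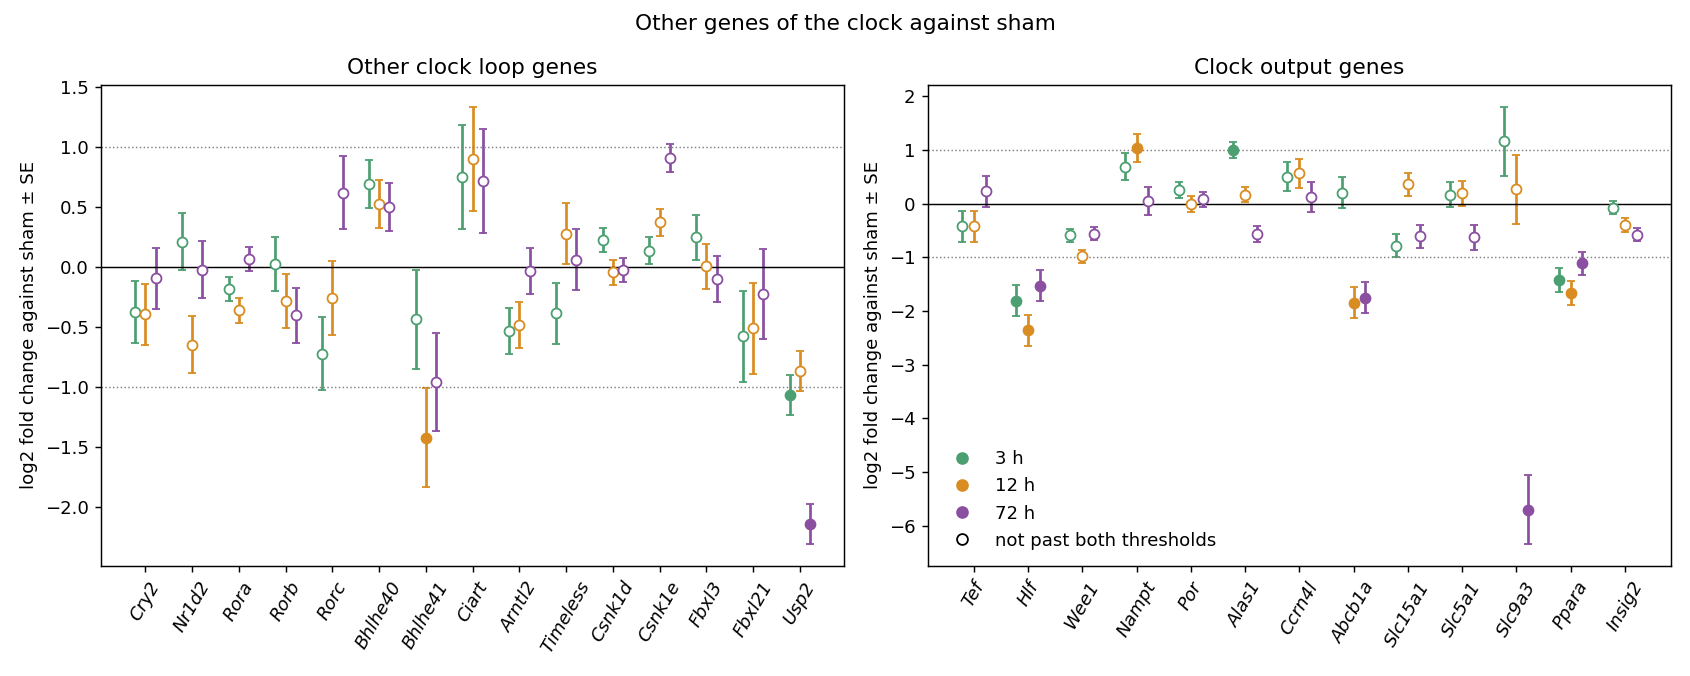
Log2 fold change against sham at 3, 12 and 72 h with its standard error for 15 other genes of the clock loop (left) and 13 genes known to be driven by the clock (right), n = 3 arrays per group. Filled points were called, and Hlf and Ppara lie below -1 at all 3 times.

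Glucocorticoids and other signals from outside the cell can reset Per1, and transcripts that answer to them were counted beside it. Over all genes 3.26%, 4.1% and 4.55% were called higher in order of time and 4.11%, 4.96% and 4.3% lower. Of 10 genes known to be induced by glucocorticoids 6, 3 and 1 were called higher in order of time and 0, 1 and 1 lower, with medians of 1.28, 0.29 and 0.01. Dusp1, a phosphatase, was the furthest up of them (3.79, 3.80 and 2.51), followed at 3 h by the metallothionein Mt2 (2.98). Of 10 immediate early genes 9, 7 and 7 were called higher and 0 lower, with medians of 1.89, 1.58 and 1.17, led at 3 h by the nuclear receptor Nr4a1 (3.30) and by Crem (3.21). The signals themselves were not measured, and their part in the Per1 values was not tested.

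Markers of cell types moved with the groups too. For comparison, 3.26%, 4.1% and 4.55% of all genes were called higher at 3, 12 and 72 h and 4.11%, 4.96% and 4.3% lower. Of 12 neutrophil markers 8, 11 and 8 were called higher at the 3 times, and their summed level on the log2 scale ran from 6.35 to 6.53 in sham, from 8.51 to 9.26 after 3 h, from 9.72 to 9.79 after 12 h and from 8.48 to 9.35 after 72 h. Of 8 macrophage markers 0, 2 and 8 were called higher, the sums being 6.77 to 7.04 in sham, 6.58 to 7.85 and 7.46 to 7.67 at the first 2 times, and 8.52 to 8.61 at the last. Of 8 smooth muscle markers 1, 8 and 7 were called lower, the sums being 9.12 to 9.22 in sham, then 8.24 to 8.52, 7.46 to 8.12 and 7.67 to 8.07. Epithelial markers, 12 in all, had 1 called higher at 3 h and 1 lower at 72 h (sums 10.9 to 11.1, 11.3 to 11.4, 11 to 11.2 and 10.3 to 10.7 in the same order), and were well above background on all 12 arrays, as were the smooth muscle markers. Of 9 lymphocyte markers and 6 fat cell markers 0 were called at any time, with sums of 3.55 to 4.23, 2.40 to 4.18, 3.6 to 4.46 and 2.64 to 3.58 for the lymphocyte list and of 4.22 to 5.24, 4.28 to 4.63, 3.04 to 3.97 and 3.39 to 7.31 for the fat cell list. Of 8 enteric neuron and glia markers 0, 2 and 1 were called lower (sums 4.72 to 4.93, 4.61 to 4.65, 4.54 to 4.99 and 3.97 to 4.31). Among 7 mesothelial markers, 1 was called higher and 3 lower at 3 h and at 12 h, with Upk3b and Lrrn4 above background on 0 arrays at both, and 3 were called higher at 72 h (sums 2.32 to 2.70, 3.36 to 3.68, 3.99 to 4.21 and 4.44 to 5.03). The median log2 difference of the mesothelial list was -1.54, -0.83 and 0.88, opposite in sign to the change of its summed level at the first 2 times. The part of these shifts in the values of the clock genes was not tested.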

How the data were processed

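Total RNA from 12 mouse ceca was hybridized to Agilent 8x60K arrays for mouse genes (SurePrint G3, second version, design 074809). The deposited scanner files, written by Feature Extraction 11.5.1.1 per the file headers, hold the authors' processed signal intensity per spot, background-subtracted and on a linear scale, with flags for spots (other values) as deposited. The authors' own table of log2 values, made in GeneSpring GX 14.9 and centred per probe, served as an alternative. Its direction follows from a correlation of 0.99997 with the values computed here. A correlation does not fix its scale, but at the same thresholds it called 2722 genes at 3 h against sham, beside 2732 here.

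Control and outlier spots were left out, spots of a probe averaged, and log2 intensities set relative to the 75th percentile of each array. A model with 4 group means was fitted over 12 arrays and 56605 probes with limma 3.58.1 (R 4.3.3), with Benjamini-Hochberg adjustment over all probes. A gene took its probe with the highest mean, and a call needed more than 2-fold and an adjusted p below 0.05. The methods name these thresholds but no array test. Limma's p-values and standard errors rest on a spread between replicate arrays that the model shared across the 4 groups. They do not rest on the spread within the compared groups alone. The number of arrays, 3 in a group, limits the precision. The members and lists were chosen with earlier results of these data known. Named beside the members were, from the other clock lists, up to 5 called genes per time with the largest change among those above background in both groups and any called against its list's direction, the 3 genes most like each member, and the 2 largest changes of the glucocorticoid and immediate early lists. Cry2, Nr1d2, Csnk1e, Ciart, Tef and single cell type markers were named after their values were seen. The script was tested on simulated data. Coordinates of probes are in mm9 as deposited, and those of promoters in GRCm38.p6. Alternatives were quantile and other scalings, normexp (offset 50), filters and a floor on dim probes, slide and replicate blocks, other test settings, all probes of a gene averaged, the methods' t-test (paired by replicate number, since the methods name a paired test), and single arrays left out. The methods name that t-test for 2 groups and Dunnett's test for larger numbers of groups, and Dunnett's test was not run here. The 75th percentile over spots and the comparison within the second slide were added after seeing the data.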

Additional observations from a re-analysis of the deposited data

Results flagged for a closer look

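Among the 10 clock genes 4 differences between neighbouring times after cauterization passed a limma adjusted p of 0.05. Time of day cannot be told apart from time after cauterization in any of them. Dbp was higher at 72 h than at 12 h by 1.39 on the log2 scale (adjusted p = 0.0227, with 3 of 3 arrays above all 12 h arrays). Clock was higher by 0.40 over the same step (adjusted p = 0.0223, 3 of 3 arrays above) and Cry1 lower, at -0.95 (adjusted p = 0.0213, 3 of 3 arrays below). Per2 was higher at 12 h than at 3 h by 0.66 (adjusted p = 0.0301, 3 of 3 arrays above). Of these 4 only the difference of Dbp was also past 2-fold. With the slide as a block 0 of the 4 passed, at adjusted p of 0.156 for Dbp, 0.173 for Clock, 0.246 for Cry1 and 0.0918 for Per2, whose step was then 0.61. Within the second slide the steps from 12 h to 72 h were 1.5 for Dbp, 0.40 for Clock and -0.79 for Cry1, each resting on 1 array at 12 h. They are the same differences that the slide block gave and not a separate check.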

How the results depend on the processing

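The counts of called clock genes (5, 7 and 5 at 3, 12 and 72 h, 0 from 3 h to 12 h and 1 from 12 h to 72 h) depended on the processing as follows. With normexp the counts were 2 at 3 h and 4 at 12 h, without Per3 and Cry1 at both, Per1 at 3 h and Arntl at 12 h. With quantile normalization 4 were called at 3 h, without Per1. With all probes of a gene averaged they were 3, 4 and 3, the calls of Cry1 and Per2 being lost along with those of Per1 and, at 12 h, of Per3, and with the 75th percentile taken over bright probes the 3 h count was 3 (1 higher and 2 lower, against 3 higher and 2 lower). The methods' t-test was paired by replicate number although the numbers did not pair the arrays. At an unadjusted p it called 1 at 3 h, 3 at 12 h and 6 at 72 h, Npas2 being added at 72 h. After adjustment it called 0 in all 5 comparisons. Without single arrays the counts ran from 3 to 5 at 3 h and from 4 to 7 at 12 h, both lowest without sham replicate 1 or 2, from 4 to 5 at 72 h, and from 0 (without 12 h or 72 h replicate 2) to 2 (without 72 h replicate 3) for 12 h to 72 h. With the slide as a block 3 were called at 72 h and 0 from 12 h to 72 h. From 12 h to 72 h the block and the second slide alone gave the same differences, because only 12 h replicate 3 links the slides. The 2 are therefore not separate checks. By the t-test 0 were called from 12 h to 72 h. The call of Bhlhe41 among the other loop genes at 12 h went to 0 under quantile normalization, normexp, the filter, the floor, either block, the 2-group fit, averaged probes and the adjusted t-test, and ranged from 0 to 1 without single arrays. That of the list at 3 h ranged from 0 to 2 and, like that at 72 h, was 0 by the adjusted t-test.

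Of 921 values for 34 differences, 909 kept their sign. The others were near 0: Npas2 at 3 h was 0.20 with quantile normalization, 0.097 with normexp and 0.11 with the floor, and ran from -0.30 to 0.25 without single arrays, and Cry1 at 72 h was -0.14 with normexp, -0.044 with averaged probes, and -0.16 to 0.26 without single arrays. The cause was not tested. Over all genes 2732, 3360 and 3282 were called against sham, but 838, 1327 and 1258 with normexp and 0 by the adjusted t-test, and 1152 at 72 h with the slide block. Between times, 1282 and 2788 became 573 and 1065 with normexp, and 0 from 12 h to 72 h and 1 from 3 h to 12 h by the adjusted t-test. From 12 h to 72 h 1225 were called with the slide block. At 72 h 1687 rose and 1595 fell, against 1851 and 1098 with quantile normalization, and at 3 h 1209 and 1523 against 631 and 207 with normexp. Replicate numbers did not pair arrays (same-number correlations -0.40 to 0.26, others -0.30 to 0.39), and with the replicate block 5, 7 and 5 clock genes were called against sham. Among the clock genes and the other loop genes, the block ended only the call of Bhlhe41. Dim probes (Npas2, Bhlhe41) limit what can be read.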
